A study of Mus musculus with 45 samples.

Results

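Narrow domains of histone H3 lysine 9 acetylation (H3K9ac) that lie beside a broad domain are called satellites here, a term of position that has nothing to do with satellite DNA repeats. A domain was a satellite if it was autosomal, at most 775 bp wide, and had its nearest edge within 2 kb of a domain of at least 2.67 kb, its broad neighbour. Of 44165 domains, 1698 (3.84%) met this rule, which makes 7.80% of the 21760 autosomal domains this narrow. They lay beside 1325 broad neighbours, 30.4% of the 4355 autosomal domains this broad. The rule used positions and widths alone and no difference between groups, although the domains themselves were called on these libraries.

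The study profiled H3K9ac by chromatin immunoprecipitation and sequencing in mouse hippocampus, asking where the mark differs between models of Alzheimer's disease and their controls. In the first model, transgenic MAPT P301S mice (Tau) were compared with wild type mice (WT). The 6-month groups were females, with 2 Tau and 3 WT libraries, and the 11-month groups were males, with 3 and 3, so age and sex cannot be told apart. In the second model, female double-transgenic CK-p25 mice were compared with CK littermates 2 weeks (3.5 months of age) and 6 weeks (4.5 months) after induction of p25, with 3 libraries in each of the 4 groups, so age and time since induction cannot be told apart. The labels name neither the promoter that drives a transgene nor separate animals behind the libraries, so p-values measure the spread between these libraries. In bulk tissue, fewer cells carrying the mark and less of the mark per cell cannot be told apart.

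H3K9ac is written by histone acetyltransferases, removed by histone deacetylases, and found at active promoters and enhancers. Broad acetylated domains commonly cover the start of an active gene, where a run of neighbouring nucleosomes carries the mark. A caller ends a domain where enrichment falls below its threshold, so a narrow domain beside a broad one can be a separate element or a detached edge of the same run, and the deposited files do not tell these apart. Coordinates are mm9, and no genome or gene annotation of that build was used here, so regions carry the identifiers of the files, no gene is named, and the hippocampal origin was not checked against marker genes.

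Satellites were short and close to their neighbours. Their width ranged from 100 to 775 bp (median 371 bp), and their total length was 674.502 kb. The distance to the broad neighbour ranged from 100 to 2000 bp (median 519 bp), and 100 bp was also the smallest distance between any pair of neighbouring domains in the file. Of the 1698, 864 lay at the lower coordinate side of the broad domain and 834 at the higher side, and 513 had some other domain nearer than the broad one. Most broad neighbours, 1011, had 1 satellite, while 259 had 2, 51 had 3 and 4 had 4. Satellites stood on both sides of 131 broad neighbours, and 41 satellites had a broad domain within 2 kb on either side. All 19 autosomes held satellites.

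Satellites held fewer H3K9ac reads per length than the broad domains beside them. Over the 11 libraries of the tau series, the median level, in counts scaled to library size (CPM) per kb of length, was 9.08 in satellites and 21.0 CPM per kb in broad neighbours. Narrow domains farther than 2 kb from any wider domain had a median of 9.41 CPM per kb, so satellites differed little in level from narrow domains elsewhere. Within pairs, 1490 of 1698 satellites had a lower level per length than their neighbour, with a median of 46.7% of the neighbour's level. The 12 CK-p25 series libraries gave 1507 lower satellites and a median of 49.5%. The levels are reads over width with no input subtracted, and their dependence on width was not tested. These levels set the depth: a satellite held a median of 16.5 reads per library in the tau series and 9.67 in the CK-p25 series, against 419 and 228 in a broad neighbour. A broad domain was therefore measured far more precisely than its satellite, and at 11 months the log2 fold changes had median standard errors of 0.33 in satellites and 0.07 in broad neighbours.

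Libraries held 4097974 to 6181925 reads in domains in the tau series and 996369 to 4133003 in the CK-p25 series, where CK 6wk replicate 3 and CK-p25 6wk replicate 3 were the shallowest. The labels also give each library's strand cross correlation, which reports on how well a ChIP enriched: at 11 months its mean was 0.313 ± 0.025 in the 3 WT and 0.228 ± 0.026 in the 3 Tau libraries (SD), and these groups did not overlap. Reads were single-end and carried no molecular identifiers, so counting errors do not cover duplicated molecules.

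One tau library went against its label at a cluster of domains that includes a satellite. The domain peak4798 (chr2:131733848-131734219, 372 bp) lies 265 bp before the broad domain peak4799 (chr2:131734485-131739117). In WT libraries peak4798 held 0.194 to 2.12 CPM. It held 14.1, 14.1 and 17.1 CPM in the Tau 11m libraries and 13 CPM in Tau 6m replicate 2, but 0.987 CPM, or 5 reads, in the library labelled Tau 6m replicate 1. The neighbour showed the same division, with 93.3 to 120 CPM in WT libraries, 107 CPM in the library labelled Tau 6m replicate 1, 408 CPM in Tau 6m replicate 2 and 372, 411 and 356 CPM at 11 months. By a rule chosen after these values were seen, 14 domains of any width had at least 2 CPM in every Tau 11m library and more than 2 times the CPM of the highest WT library. Of these 14, 5 lay within 36.2 kb on chromosome 2, peak4796, peak4797, peak4798, peak4799 and peak4802, and 9 lay elsewhere. Tau 6m replicate 2 exceeded 2 times the highest WT library at all 5 on chromosome 2 and at none of the other 9, and the library labelled Tau 6m replicate 1 did so at 0 of the 14. Whether that library carries the transgene was not tested. The main 6-month counts, ratios and correlations below are given with and without it. The 6-month count of satellites at an unadjusted p and the DESeq2, limma and replicate block results at 6 months include it.

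At peak4798 the 11-month difference was the largest among satellites, 13.6-fold (log2 fold change 3.76 ± 0.83 SE, edgeR adjusted p = 0.025), with no overlap between groups. Its neighbour peak4799 was 3.95-fold higher in reads (1.98 ± 0.42, edgeR adjusted p = 0.021), and the satellite's change exceeded the neighbour's by 1.79 ± 0.36 (edgeR adjusted p = 0.00029). The counts of both domains were not set against input DNA. Whether more copies of this DNA or more of the mark raised them was not tested. At 6 months with all libraries the log2 fold change of peak4798 was 2.58 ± 1.09 (edgeR adjusted p = 1). Without the library labelled Tau 6m replicate 1 it was 3.52 ± 0.41 (edgeR adjusted p = 9.8e-08), with the 1 remaining Tau library assumed to vary like the other groups. The same exclusion narrowed the error at 11 months from 0.83 to 0.30 (3.77, edgeR adjusted p = 1.4e-14), because the groups share 1 estimate of the spread. The domain peak4798 was not tested in the CK-p25 series, where it held 0 to 7 reads per library.

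Relative to broad domains, satellites held more reads in the 11-month Tau libraries. Satellites took 5.20 ± 0.15 reads per 100 reads in their broad neighbours in WT 11m libraries (n = 3) and 5.75 ± 0.24 in Tau 11m libraries (n = 3), a ratio 10.4% higher with no overlap between groups. The move had both parts: the satellites' share of all reads in domains went from 0.614% to 0.648%, and that of their neighbours from 11.8% to 11.3%. The ratio of all other narrow to all other broad domains was 9.85% higher as well, from 27.5 to 30.2 reads per 100, so it was not particular to satellites. At 6 months the satellite ratio was 5.39 to 5.45 in the WT libraries, 5.40 in the library labelled Tau 6m replicate 1 and 5.56 in Tau 6m replicate 2, so the groups overlapped with the former library and did not without it, when 1 Tau library was left. In the CK-p25 series it went from 5.46 ± 0.05 to 5.69 ± 0.13 at 2 weeks with no overlap and from 5.70 ± 0.15 to 5.84 ± 0.11 at 6 weeks with overlap (n = 3 each). The ratio of all other narrow to all other broad domains was 5.08% higher at 2 weeks, with overlap, and 4.00% higher at 6 weeks, without, against 4.09% and 2.49% in satellites. No test was made of these sums. Cross correlation was lower in every Tau 11m library than in any WT 11m library. In WT 6m libraries, which also differ in age and sex, its mean was 0.245, nearer to Tau 11m (0.228) than to WT 11m (0.313). The satellites' share in WT 6m libraries was 0.648%, and that of their neighbours 11.96%. In the CK-p25 series the ratio and mean cross correlation both rose. Cross correlation went from 0.138 to 0.167 at 2 weeks and from 0.093 to 0.131 at 6 weeks, with overlap at both times. The part of cross correlation in the ratio was not tested.

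**Figure D1:**
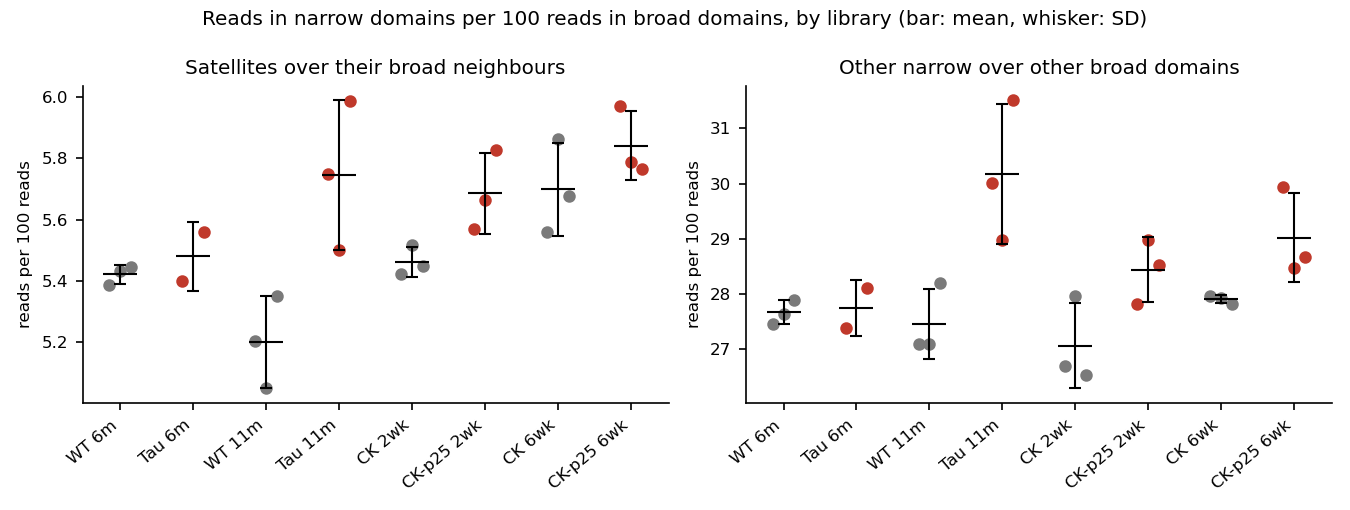
Reads in narrow domains per 100 reads in broad domains, by library (points), with the mean (bar) and SD (whisker) of each group; control groups are grey and model groups red. Left, satellites over their 1325 broad neighbours; right, all other narrow over all other broad autosomal domains. In both panels the 3 Tau 11m libraries lie above the 3 WT 11m libraries.

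At 11 months, tau mice differed from wild type at few single satellites, in both directions. Of 1693 satellites tested (5 had too few reads), 68 passed, 31 higher and 37 lower in Tau (edgeR quasi-likelihood test, adjusted p under 0.05 over all domains). That is 4.02% of satellites, against 12% of all domains tested (4.4% higher and 7.56% lower). Narrow domains within 2 kb of a domain of medium width, between the narrow and the broad class, and narrow domains farther away passed at 4.89% and 5.02%, and of the 1325 broad neighbours 491 passed (37.1%), 106 higher and 385 lower. The median log2 fold change was 0.04 in satellites, -0.06 in their neighbours and 0.01 over all domains tested. With library totals in place of TMM scaling the split of satellites was 46 higher and 33 lower. The split of all domains moved as well, from 1940 higher and 3333 lower to 2705 higher and 2775 lower (12.4% called). The count fell to 33 without Tau 11m replicate 3 and to 42 without WT 11m replicate 1, where 7.84% and 9.23% of all domains passed. With cross correlation as a covariate the count fell to 0. In that fit the median standard error of satellites was 0.72 and 125 had an unadjusted p under 0.05. The calls over all domains fell to 695 (1.58%). DESeq2 called 14 of the 1693 tested satellites, of which 653 had an adjusted p. Of all 44105 tested domains, with or without an adjusted p, it called 2912 (6.60%).

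**Figure D2:**
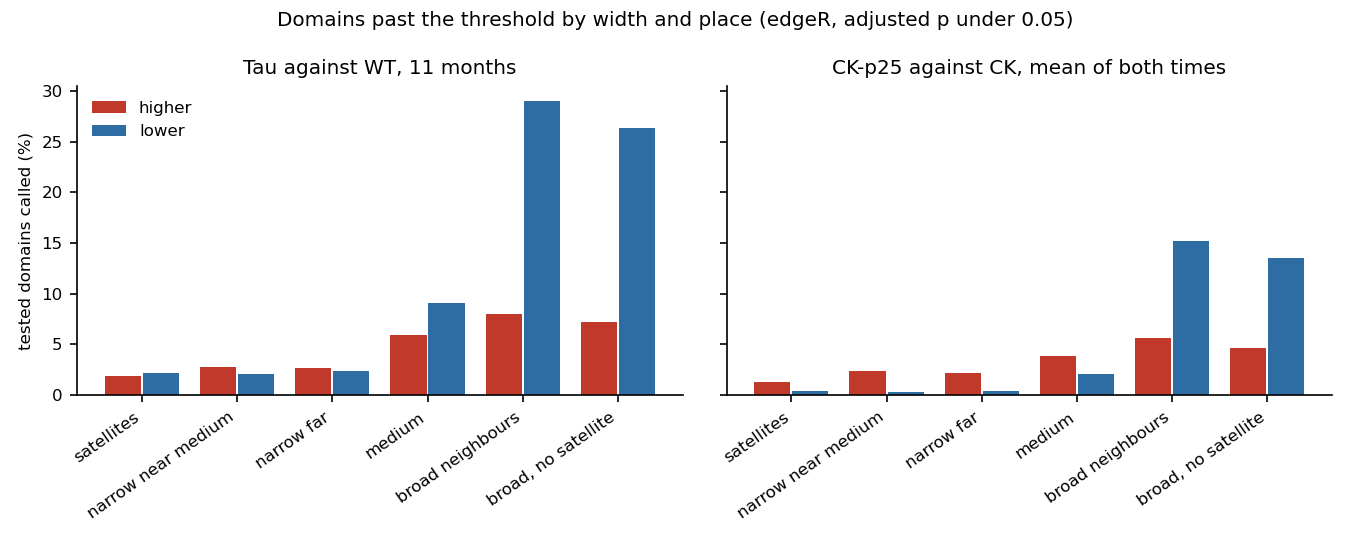
Share of tested domains (%) past the threshold of edgeR's test, higher (red) or lower (blue) in the model, by width and place of the domain. At 11 months 1.83% of satellites were higher and 2.19% lower, against 8% and 29.1% of their broad neighbours.

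Most satellites that fell at 11 months did so beside broad domains that fell. Of the 37 lower satellites, 34 had a neighbour called lower and 3 a neighbour not called. Of the 31 higher satellites, 7 had a neighbour called higher, 21 a neighbour not called and 3 a neighbour called lower. More neighbours were called lower than higher to begin with (385 against 106), and this difference between rising and falling satellites was not tested. The fallen satellites had a median log2 fold change of -1.11 and their neighbours -0.71. The risen ones had a median of 1.01 and their neighbours 0.16. These medians describe the called satellites alone.

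The domain peak21155 (chr8:124253292-124253949, 658 bp), 319 bp from the broad domain peak21156, had the smallest adjusted p among lower satellites. It held 10.2, 10.9 and 7.80 CPM in WT 11m and 4.2, 6.3 and 3.86 CPM in Tau 11m libraries, and the groups did not overlap. The difference was 0.489-fold (log2 fold change -1.03 ± 0.22, edgeR adjusted p = 0.00036). Its neighbour peak21156 held 110 to 124 CPM in WT and 62.4 to 81.4 CPM in Tau libraries (log2 fold change -0.73, edgeR adjusted p = 3.5e-12), and the satellite and its neighbour did not differ in change beyond their error (-0.30 ± 0.22, edgeR adjusted p = 0.43).

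A broad domain on chromosome 14, peak33653, fell together with both of its satellites. The neighbour held 45.1, 50 and 39.8 CPM in WT 11m and 20.4, 26.9 and 20.6 CPM in Tau 11m libraries (log2 fold change -1, edgeR adjusted p = 1.7e-11). The domain peak33654 (chr14:28692597-28692951), 452 bp away, held 5.44, 2.92 and 4.23 CPM in WT and 1.83, 1.70 and 0.736 CPM in Tau libraries, that is 15 to 33 reads against 4 to 10 (-1.58 ± 0.37, edgeR adjusted p = 0.0013). The domain peak33655 (chr14:28693594-28694095), 1449 bp away, held 3.79, 5.45 and 3.41 CPM in WT and 2.19, 0.727 and 2.02 CPM in Tau libraries (-1.26 ± 0.35, edgeR adjusted p = 0.0081). In all 3 domains every Tau 11m library was below every WT 11m library, which is no separate support, since they were picked on these libraries. In the CK-p25 series peak33653 also fell at both times (log2 fold change -0.53 and -0.59, edgeR adjusted p = 0.0029 and 0.0056), while neither satellite passed, with log2 fold changes in peak33654 of -0.49 ± 0.44 and -0.04 ± 0.48 and in peak33655 of -0.13 ± 0.39 and -0.94 ± 0.46.

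The other named lower satellites at 11 months were peak766 (chr1:74900659-74901433, log2 fold change -0.92 ± 0.20), peak31370 (chr12:109210863-109211503, -1.33 ± 0.30), peak10420 (chr4:140605443-140606151, -1.21 ± 0.28), peak4156 (chr2:92452258-92452689, -1.45 ± 0.36), peak21744 (chr9:26540596-26541316, -0.59 ± 0.15) and peak42429 (chr19:10532216-10532730, -1.11 ± 0.29). In all 6 the Tau 11m and WT 11m libraries did not overlap. Satellites named for their adjusted p were chosen on these same libraries, so lack of overlap is no separate support for them. All 6 neighbours were called lower too, by 0.37 to 1.25 on the log2 scale in size. With cross correlation as a covariate the log2 fold change of peak10420 was 0.01, a change of sign.

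Among the higher satellites the neighbours were mixed. The domain peak40143 (chr17:71197101-71197639, 539 bp), 227 bp from peak40144, rose with its neighbour: it held 2.47, 2.92 and 2.60 CPM in WT 11m and 6.39, 3.64 and 7.73 CPM in Tau 11m libraries (log2 fold change 1.19 ± 0.28, edgeR adjusted p = 0.0017), and peak40144 rose by 0.80 (edgeR adjusted p = 5.2e-05). The domain peak8577 (chr4:47368487-47369076, 1.28 ± 0.31) and peak36532 (chr15:89007761-89008138, 1.25 ± 0.32) rose beside neighbours at 0.09 and 0.00, neither of which was called. The domain peak22670 (chr9:61223578-61224189, 1.06 ± 0.28) rose more than its neighbour, which was called higher at 0.28 (difference 0.78 ± 0.27, edgeR adjusted p = 0.042).

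The highest level per length of any satellite in the tau series, 49.8 CPM per kb, was that of peak21488 (chr9:3029960-3030420) near the start of chromosome 9. It and peak21485 (chr9:3023237-3023755, 41.4 CPM per kb) lie on either side of the broad domain peak21486. Both were called higher at 11 months, peak21488 with a log2 fold change of 0.46 ± 0.12 (edgeR adjusted p = 0.0042) and peak21485 with 0.43 ± 0.12 (edgeR adjusted p = 0.0077), beside 0.42 in their neighbour, which was not called. The domain peak21485 held 9.86 to 11.1 CPM in all 5 libraries of 6 months and 23.1 to 41.4 CPM in all 6 of 11 months, so the difference between the age groups exceeded that between genotypes. With cross correlation as a covariate both changed sign, peak21488 to -0.11 and peak21485 to -0.01. Whether reads map uniquely there was not tested.

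The direct comparison asks, pair by pair, whether a satellite changed differently from its broad neighbour in the same libraries. At 11 months 48 of 1693 satellites did (edgeR quasi-likelihood test on the ratio, adjusted over all pairs of a domain below the broad class and its nearest broad domain). In 45 the satellite moved above its neighbour and in 3 below. These 48 are 2.84% of satellites, against 12.6% of all pairs tested (9.09% above and 3.51% below), and against 7.85% of narrow domains near a medium one and 8.39% of those farther away. The median difference was 0.13 in satellites and 0.10 over all pairs, and 1083 of the 1693 differences were positive. Without Tau 11m replicate 1, Tau 11m replicate 3 or WT 11m replicate 1 the counts were 30, 24 and 26. Of all pairs 9.75%, 7.26% and 9.39% passed there. With cross correlation as a covariate 1 satellite passed, against 282 of all pairs (0.724%).

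**Figure D3:**
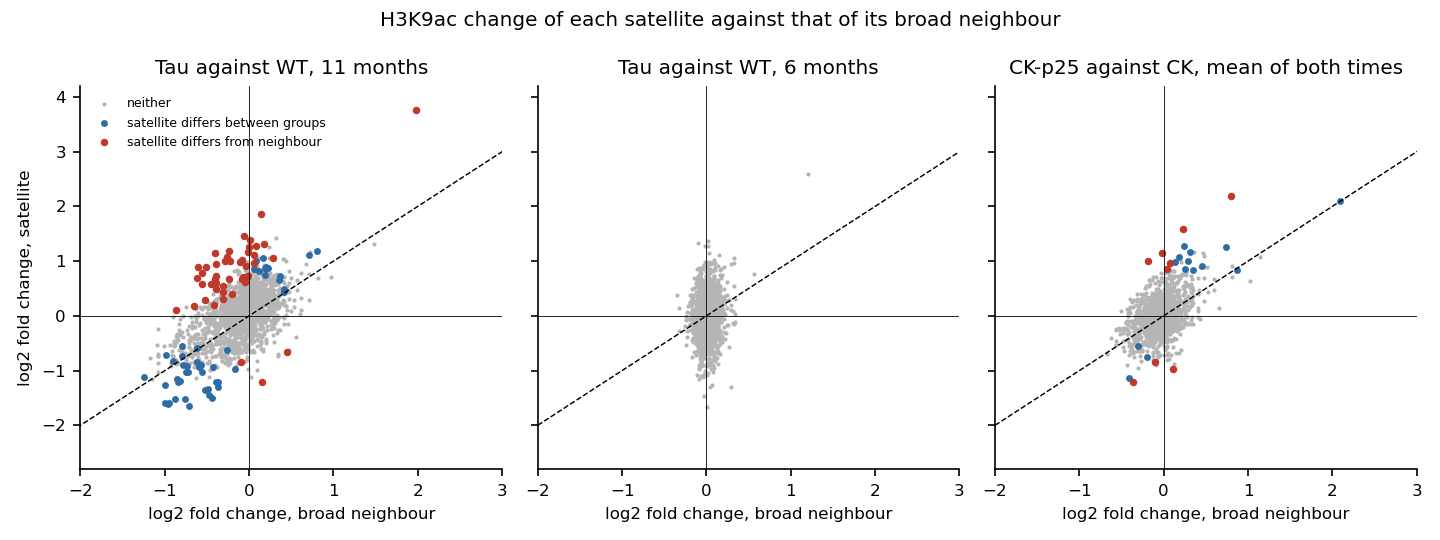
Log2 fold change of each tested satellite (y axis) against that of its broad neighbour (x axis) in 3 comparisons; the dashed line marks equal change. Red points are satellites whose change differed from the neighbour's, and blue points are other satellites that differed between groups (both edgeR, adjusted p under 0.05). At 11 months 45 of the 48 red points lie above the line, and at 6 months there are none. The 6-month panel includes the library labelled Tau 6m replicate 1.

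Some of these pairs moved in opposite directions. The domain peak38396 (chr16:96500270-96500630, 361 bp) lies 352 bp from peak38397. The satellite held 2.97, 2.14 and 1.63 CPM in WT 11m and 5.29, 4.12 and 5.52 CPM in Tau 11m libraries, 10 to 18 reads against 17 to 30. It rose, with a log2 fold change of 1.16 ± 0.31 (edgeR adjusted p = 0.0064), while peak38397 fell from 61.8 to 69.8 CPM down to 46.9 to 55.7 CPM (log2 fold change -0.41, edgeR adjusted p = 0.00012). The difference of the changes was 1.57 ± 0.31 (edgeR adjusted p = 0.00022). In the CK-p25 series the difference was -0.22 ± 0.39 at 2 weeks and 0.53 ± 0.43 at 6 weeks, neither past the threshold.

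The domain peak35213 (chr15:32173833-32174367, 535 bp), 186 bp from peak35214, showed the same pattern at 11 months. It held 4.45, 4.67 and 4.71 CPM in WT and 6.39, 6.06 and 9.57 CPM in Tau libraries (log2 fold change 0.68 ± 0.24, edgeR adjusted p = 0.045), and peak35214 held 74.6 to 80.1 CPM in WT and 46.5 to 56.7 CPM in Tau libraries (-0.61, edgeR adjusted p = 2.3e-09). The difference was 1.29 ± 0.25 (edgeR adjusted p = 0.00015), and neither domain's groups overlapped. The domain peak9785 (chr4:128919602-128920035) was the other of the 3 satellites called higher beside a neighbour called lower, at 1.01 ± 0.28 beside a neighbour at -0.28, although its own groups overlapped in CPM. The domain peak18424 (chr7:126129322-126129827) rose by 1.19 ± 0.31 beside a neighbour at -0.24 that was not called (difference 1.43 ± 0.32, edgeR adjusted p = 0.0012).

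The 3 satellites that moved below their neighbours were peak16500, peak18900 and peak41562. The domain peak18900 (chr7:146032107-146032483) changed by -1.21 ± 0.41 beside a neighbour at 0.16 (difference -1.36 ± 0.41, edgeR adjusted p = 0.018), with overlap between its groups. The domain peak41562 was at -0.67 ± 0.34, which did not pass, beside a neighbour that rose by 0.45 (difference -1.12 ± 0.34, edgeR adjusted p = 0.017). The domain peak16500 (chr7:26027753-26028523) changed by -0.84 ± 0.25 beside a neighbour at -0.10 (difference -0.75 ± 0.24, edgeR adjusted p = 0.028).

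Sorted by what the broad neighbour did at 11 months, satellites leaned the same way. Beside the 384 lowered neighbours, 351 of 498 tested satellites (70.5%) had a negative log2 fold change, with a median of -0.23 against -0.41 in the neighbours. Beside the 105 raised neighbours, 111 of 136 (81.6%) were positive, with a median of 0.35 against 0.32. Beside the 833 neighbours not called, 61.7% of 1059 satellites were positive, with a median of 0.11 against -0.00. Satellite and neighbour come from the same libraries, and the neighbours were sorted on those libraries, so these are descriptions.

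The sorting was repeated with neighbours called in the libraries of the other model. The 201 neighbours called lower in CK-p25 mice, on average over both times, had 259 tested satellites in the tau series. Of these, 207 (79.9%) were negative at 11 months, with a median log2 fold change of -0.43, and their neighbours had a median of -0.59. Beside the 1048 neighbours not called in CK-p25 mice, 777 of 1338 satellites (58.1%) were positive at 11 months. Beside the 73 neighbours called higher in CK-p25 mice, 82 of 96 satellites (85.4%) were positive at 11 months, with a median of 0.52 against 0.26 in the neighbours. In the other direction, beside 303 neighbours called lower in Tau at 11 months, 240 of 369 satellites (65.0%) were negative on average in CK-p25 mice (median -0.14 against -0.22), and beside 88 called higher, 75 of 108 (69.4%) were positive (median 0.24 against 0.18). Beside the 631 not called, 413 of 771 (53.6%) were positive. The models share no library.

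At 6 months 0 of 1693 satellites passed in edgeR's test, as did 0 of all domains tested (0%). Of the satellites 75 had an unadjusted p under 0.05, and DESeq2 called 0. Against the broad neighbour 0 passed as well, of 0% among all pairs tested, with 78 at an unadjusted p under 0.05 and 0 by limma on log2 ratios. Without the library labelled Tau 6m replicate 1 the pair test again called 0 in edgeR, and 70 had an unadjusted p under 0.05. With all libraries, satellites had a median standard error of 0.37, so only large changes could have been detected. Without the library labelled Tau 6m replicate 1, 1 of 1695 satellites passed, peak4798, against 8 of 44150 domains (0.0181%). The difference between the 11-month and 6-month effects passed at 9 satellites, 2 higher and 7 lower, or 0.532% against 4.23% of all domains (1.02% higher and 3.21% lower). That count was 3 without the library labelled Tau 6m replicate 1 (2.15% of all domains), 5 without WT 6m replicate 2 or WT 11m replicate 1, 15 without WT 11m replicate 3, 21 without Tau 11m replicate 2, and 0 with cross correlation as a covariate (412 of all domains, 0.934%).

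In CK-p25 mice most called satellites rose at 2 weeks and on average, while at 6 weeks the calls were split between both directions. At 2 weeks 11 of 1248 tested satellites passed, 10 higher and 1 lower, or 0.881% against 2.12% of all domains (1.51% higher and 0.613% lower). At 6 weeks 7 passed, 4 higher and 3 lower, or 0.561% against 2.65% (1.32% higher and 1.33% lower). On average over both times 21 passed, 16 higher and 5 lower, or 1.68% against 5.95% (3.2% higher and 2.75% lower). The other 450 satellites had too few reads in this series to be tested. Narrow domains near a medium one passed at 1.20% (41 higher, 0 lower), 0.676% (19 and 4) and 2.67% (81 and 10) in these comparisons. Narrow domains farther away passed at 1.01% (112 higher, 1 lower), 0.804% (75 and 15) and 2.60% (243 and 48). The lean toward higher calls at 2 weeks and on average was therefore not particular to satellites. Of the broad neighbours 276 (20.8%) passed on average, 75 higher and 201 lower. The effect at 6 weeks differed from that at 2 weeks at 0 satellites in edgeR's test and in DESeq2's, against 0.00524% of all domains, and 64 satellites had an unadjusted p under 0.05.

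These small counts moved with single libraries. At 2 weeks 6, 4 and 6 satellites passed without CK 2wk replicate 1, 2 or 3, of which 5, 4 and 5 were higher. Of all domains 1.72%, 1.07% and 1.45% passed in these fits, against 2.12% with all libraries. Without CK-p25 2wk replicate 2 or replicate 3, 5 satellites passed, of which 5 and 3 were higher, against 1.07% and 1.24% of all domains. At 6 weeks 2 passed without CK 6wk replicate 1, both lower, while 3 and 4 passed without CK 6wk replicate 2 or 3, all higher. Of all domains 1.88%, 1.34% and 1.59% passed there, against 2.65% with all libraries. Further, 1 passed without CK-p25 6wk replicate 1 (higher), 4 without CK-p25 6wk replicate 3 (3 higher and 1 lower), and 3 (all higher) without both shallow libraries. The shares of all domains in these fits were 1.22%, 1.73% and 0.992%. On average 13 passed without CK-p25 2wk replicate 2 (8 higher) or without CK-p25 6wk replicate 1 (10 higher), and 22 without both shallow libraries. Of all domains 4.30%, 4.17% and 4.46% passed there, against 5.95% with all libraries. Of 1248 tested satellites DESeq2 called 1, 1 and 6 in the 3 comparisons, where 753, 119 and 1248 had an adjusted p. Of all 38193 tested domains, with or without an adjusted p, it called 304, 454 and 1187 (0.796%, 1.19% and 3.11%).

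The domain peak1693 (chr1:155962757-155963358, 602 bp), 416 bp from peak1694, had the smallest adjusted p at 2 weeks. It held 1.26, 3.10 and 2.56 CPM in CK 2wk and 6.61, 12.5 and 9.18 CPM in CK-p25 2wk libraries, that is 3 to 12 reads against 25 to 48 (log2 fold change 1.94 ± 0.34, edgeR adjusted p = 3.1e-05). At 6 weeks it held 3.52, 7.24 and 3.08 CPM in CK and 10.2, 11.4 and 10 CPM in CK-p25 libraries (1.24 ± 0.34, edgeR adjusted p = 0.022). No CK-p25 library overlapped a CK library at either time, although without both shallow libraries the 6-week difference did not pass (edgeR adjusted p = 0.11). The neighbour peak1694 was at 0.24 and 0.23 and was not called, and on average the satellite's change exceeded it by 1.35 ± 0.26 (edgeR adjusted p = 0.00017). In Tau 11m libraries peak1693 held 3.83 to 6.62 CPM against 2.60 to 3.31 CPM in WT, a log2 fold change of 0.76 ± 0.29 that did not pass (edgeR adjusted p = 0.076).

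The domain peak5449 (chr2:160189048-160189353, 306 bp), 205 bp from peak5450, rose at both times beside a neighbour that rose less. It held 3 reads in each CK 2wk library and 14 to 22 in CK-p25 2wk libraries, then 4, 1 and 1 reads in CK 6wk and 18, 20 and 4 in CK-p25 6wk libraries. The log2 fold change was 2.18 at both times (SE 0.48 and 0.57, edgeR adjusted p = 0.0019 and 0.014), with no overlap in CPM. The neighbour peak5450 held 40 to 45.7 CPM in CK 2wk and 69.5 to 90 CPM in CK-p25 2wk libraries (0.91, edgeR adjusted p = 2.5e-10), and changed by 0.69 at 6 weeks. On average the satellite's change exceeded it by 1.40 ± 0.38 (edgeR adjusted p = 0.013). At 11 months peak5450 rose in Tau libraries too (0.67, edgeR adjusted p = 1.7e-09), and peak5449 was at 0.94 ± 0.42, which did not pass.

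The domain peak37506 (chr16:23612340-23612517, 178 bp) lies 103 bp from peak37505 (chr16:23609351-23612236), which had the largest log2 fold change of the broad neighbours in CK-p25 mice at 2 weeks and on average. The neighbour held 17.2 to 19.1 CPM in CK 2wk and 82.7, 98.8 and 120 CPM in CK-p25 2wk libraries (log2 fold change 2.42, edgeR adjusted p = 1.2e-32), and changed by 1.77 at 6 weeks. The domain peak37506 held 1, 5 and 2 reads in CK 2wk and 16, 15 and 7 reads in CK-p25 2wk libraries (1.82 ± 0.58, edgeR adjusted p = 0.078). At 6 weeks it held 1, 1 and 2 reads against 19, 7 and 7 (2.38 ± 0.71, edgeR adjusted p = 0.044, and 0.073 without both shallow libraries). Its change minus the neighbour's was -0.58 ± 0.69 at 2 weeks and 0.62 ± 0.70 at 6 weeks, neither past the threshold (edgeR adjusted p = 0.85 and 0.80). In the tau series peak37506 had too few reads to test, and peak37505 held 19.4 to 20.5 CPM in WT 11m and 38.3 to 55.9 CPM in Tau 11m libraries.

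The remaining satellites called higher at 2 weeks were peak33000 (chr13:97963898-97964358, log2 fold change 1.45 ± 0.35), peak31221 (chr12:103680569-103680841, 1.90 ± 0.48), peak38787 (chr17:23942584-23942828, 1.88 ± 0.51), peak19663 (chr8:47823789-47824330, 1.18 ± 0.33), peak24587 (chr10:58687302-58687621, 1.75 ± 0.49) and peak14138 (chr6:31062665-31063408, 1.1 ± 0.31), beside 2 more outside the naming rule. The neighbours of 4 of these 6 were called higher, by 0.39 to 0.82, and those of peak38787 and peak19663 were at -0.06 and 0.07. The domain peak19663 was called at 11 months as well. It held 4.19, 3.36 and 2.56 CPM in CK 2wk and 7.34, 9.13 and 6.61 CPM in CK-p25 2wk libraries, and 2.80, 2.14 and 2.93 CPM in WT 11m and 3.83, 4.85 and 6.26 CPM in Tau 11m libraries. Its log2 fold changes were 1.18 and 0.91 (edgeR adjusted p = 0.026 and 0.038) beside neighbours' changes of 0.07 and -0.03, with satellite minus neighbour differences of 1.11 ± 0.32 and 0.94 ± 0.29 (edgeR adjusted p = 0.042 and 0.019).

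At 6 weeks peak31981 (chr13:31716605-31717353) rose by 1.45 ± 0.34 beside a neighbour at 0.11 (difference 1.35 ± 0.36, edgeR adjusted p = 0.035), and it was the only satellite that differed from its neighbour at that time. The 3 lower satellites at 6 weeks were peak11395 (chr5:33367574-33368160, -1.20 ± 0.34), peak25706 (chr10:98382483-98383181, -1.27 ± 0.37) and peak26718 (chr11:36487598-36488014, -1.24 ± 0.37), with neighbours at -0.29, -0.24 and -0.55. At 2 weeks these 3 were at 0.29, -0.06 and -0.09, and without both shallow libraries 0 lower satellites passed at 6 weeks. The domain peak3678 (chr2:61649434-61650024), 1566 bp from peak3677, was the lower satellite at 2 weeks. It held 11.3, 7.23 and 5.13 CPM in CK 2wk and 2.45, 3.39 and 4.41 CPM in CK-p25 2wk libraries (-1.25 ± 0.33, edgeR adjusted p = 0.017), with -1.16 ± 0.39 at 6 weeks and -0.91 ± 0.30 in Tau at 11 months (edgeR adjusted p = 0.098 and 0.031).

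**Figure D4:**
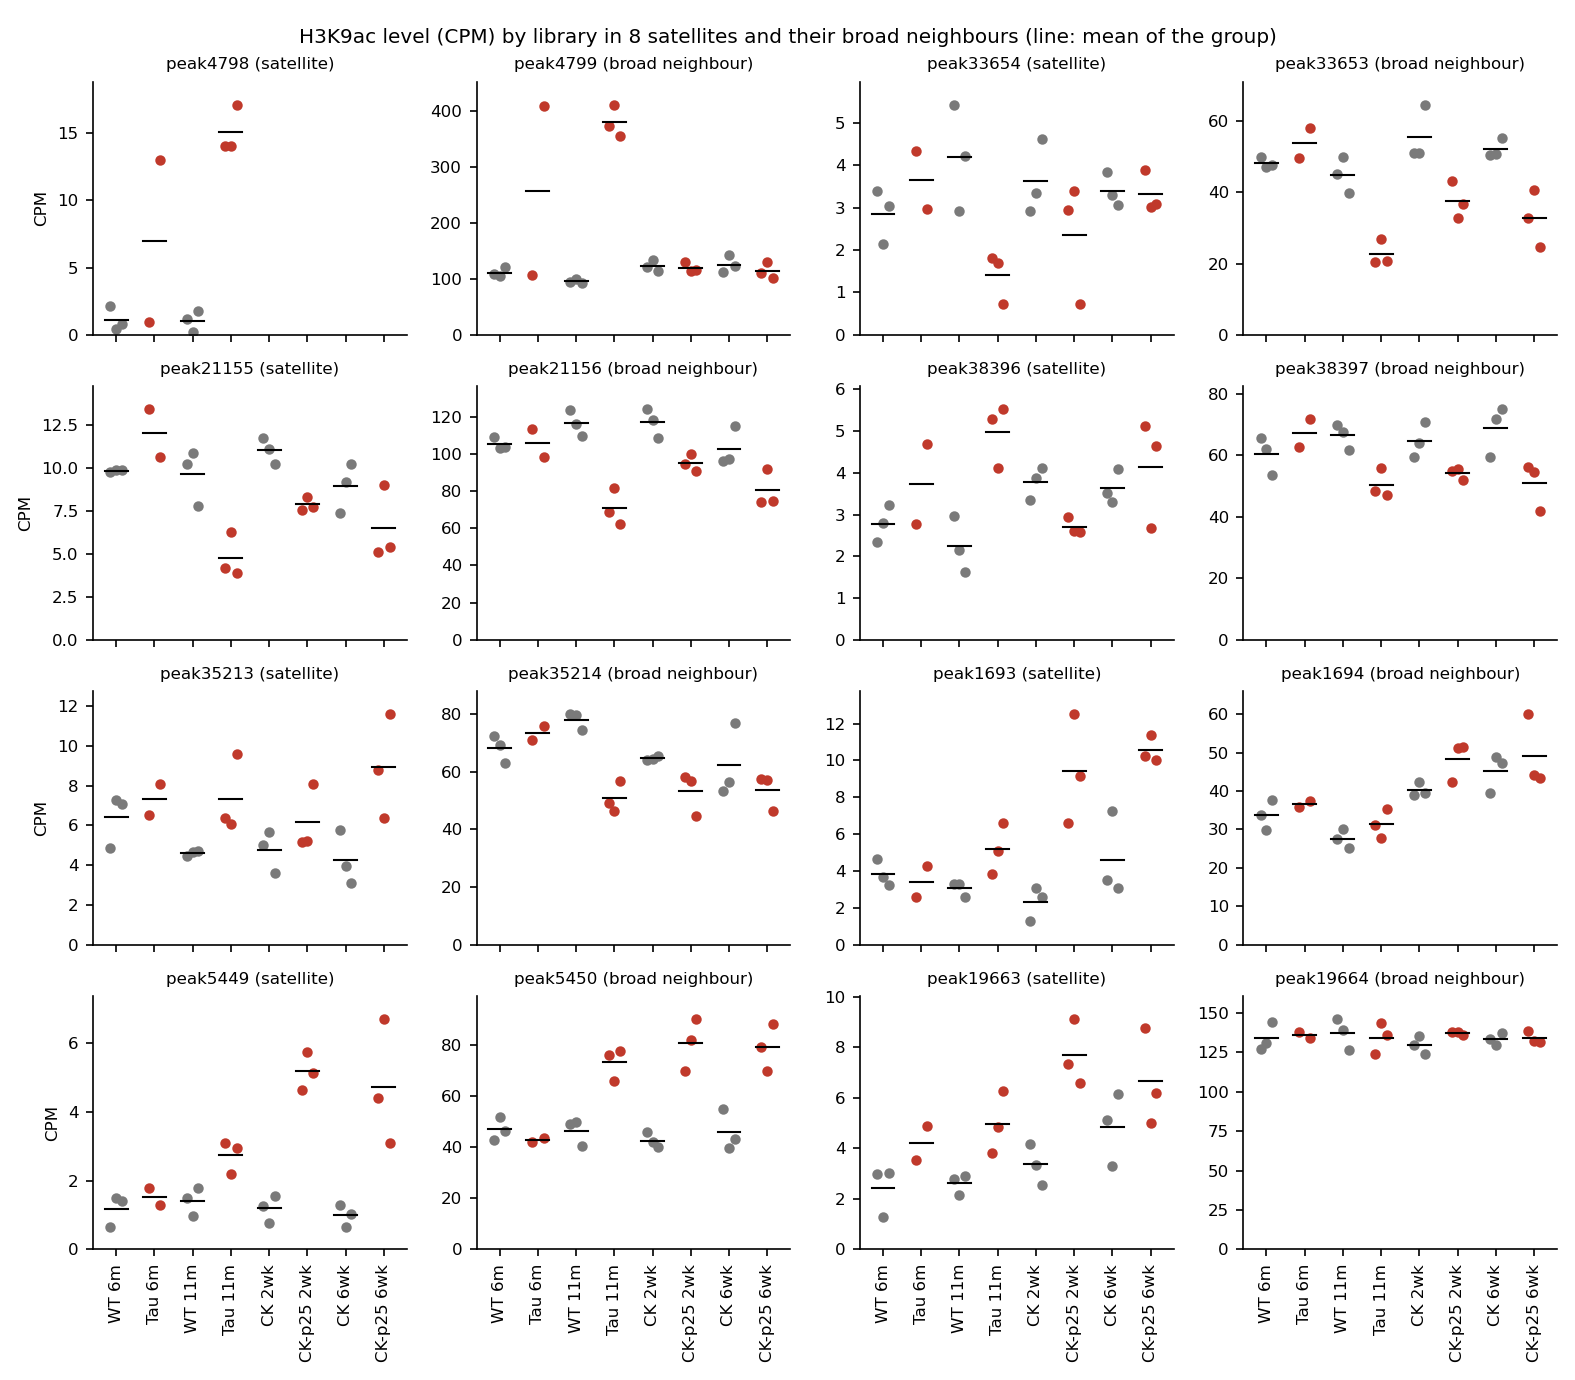
H3K9ac level (CPM, linear axis from 0) by library in 8 satellites and the broad neighbour of each; control libraries are grey, model libraries red and the line is the mean of the group. The domain peak4798 has no points in the CK-p25 series, where it was not tested, and 1 of the 2 Tau 6m points of peak4798 and of peak4799 lies at the WT level. The domain peak38396 and peak35213 rise in Tau 11m libraries while the broad domains beside them fall.

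Few satellites in CK-p25 mice changed differently from their broad neighbour. Depth was lower here than in the tau series, and no test compared the models. At 2 weeks 4 of 1248 satellites passed, all above the neighbour, or 0.321% against 1.83% of all pairs (1.41% above). At 6 weeks 1 passed, above its neighbour, or 0.0801% against 1.39% (1.02% above). On average 9 passed, 6 above and 3 below, or 0.721% against 4.93% (3.63% above and 1.3% below), where narrow domains near a medium one and farther away passed at 3.23% and 3.07%. At 2 weeks 1, 1 and 2 passed without CK 2wk replicate 1, 2 or 3, and 1 and 2 without CK-p25 2wk replicate 2 or 3. Of all pairs 1.36%, 0.815%, 1.07%, 0.881% and 1.06% passed in these fits. At 6 weeks 0 passed without CK 6wk replicate 1, CK 6wk replicate 3, CK-p25 6wk replicate 1 or CK-p25 6wk replicate 3. Of all pairs 0.648%, 0.734%, 0.511% and 0.846% passed there. On average 4 passed without CK 2wk replicate 2 or CK 6wk replicate 1, against 3.24% and 3.78% of all pairs. Without CK 2wk replicate 1, CK 6wk replicate 2, CK-p25 2wk replicate 2 or CK-p25 6wk replicate 1 it was 5. The shares of all pairs there were 4.30%, 3.58%, 3.17% and 3.19%. Without both shallow libraries 7 passed on average, all above, against 3.35% of all pairs. The 3 satellites below their neighbours with all libraries were peak3678, peak15307 (chr6:113259293-113259707) and peak3514 (chr2:44974368-44974840), and peak21015 (chr8:122751609-122752034) was among those above, at 1.21 ± 0.35 (edgeR adjusted p = 0.024).

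Called satellites were compared between the models. Of 1247 satellites tested in both, 28 were higher in Tau at 11 months and 15 on average in CK-p25 mice, and 5 were higher in both, 17.9% and 33.3% of each list. For lower satellites the numbers were 26, 5 and 3, or 11.5% and 60.0%. Over all 38167 domains tested in both, the shared calls were 35.8% of the Tau and 54.9% of the CK-p25 list among higher domains, and 27.7% and 85.4% among lower ones. All 4 shares were lower in satellites, and these differences were not tested. The set of all domains includes wider ones that were measured more precisely, and other narrow domains were not compared in this way. Of the 15 higher in CK-p25 mice 13 had a positive log2 fold change in Tau at 11 months, and all 5 of the lower ones had a negative log2 fold change there. None was called in the same direction in Tau at 11 months and at each of the CK-p25 times (0 satellites).

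Across narrow domains, the change followed that of the nearest broad domain less the farther away it lay. At 11 months Spearman's rho between both log2 fold changes was 0.48 over 1693 satellites, 0.41 over 2470 narrow domains at 2 to 10 kb, 0.29 over 5547 at 10 to 50 kb, 0.16 over 6733 at 50 to 200 kb and 0.08 over 5258 beyond 200 kb. Within satellites it was 0.54 at 100 to 250 bp, 0.45 at 251 to 500 bp, 0.51 at 501 to 1000 bp and 0.44 at 1001 to 2000 bp, with no steady order. At 2 weeks it went from 0.29 in satellites to 0.01 beyond 200 kb, and at 6 weeks from 0.32 to 0.08. At 6 months it was 0.07 in satellites, and 0.10 without the library labelled Tau 6m replicate 1. These are descriptions: the points share libraries, scaling and often the same broad domain, and single values are blurred by low counts. The share of narrow domains whose change differed from the broad domain's went the other way at 11 months, from 2.84% in satellites to 3.68%, 6.80%, 8.81% and 11.3% with distance, while the median difference stayed between 0.11 and 0.15. Median depth was alike in these classes, at 16.1 to 17.7 reads per library.

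**Figure D5:**
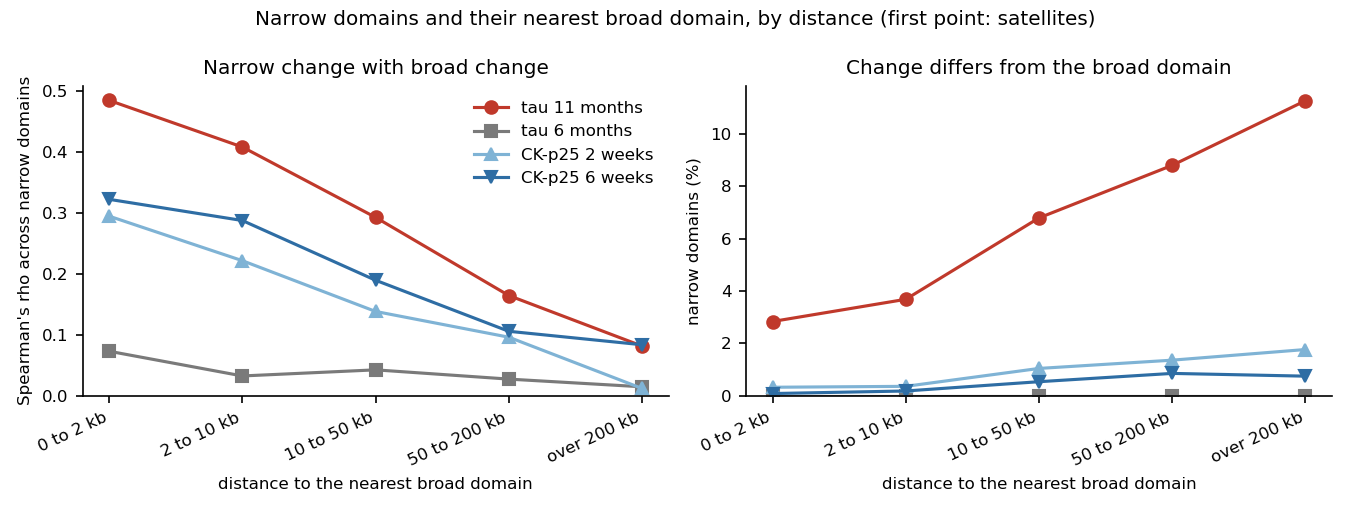
Narrow autosomal domains by distance to the nearest broad domain (x axis); the first point of each line is the satellites. Left, Spearman's rho across domains between the log2 fold changes of narrow and broad domain; right, share (%) of narrow domains whose change differed from the broad domain's (edgeR, adjusted p under 0.05). At 11 months rho goes from 0.48 to 0.08 and the share from 2.84% to 11.3%.

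Satellites of the same broad domain did not always move together. Among 258 broad neighbours with 2 tested satellites, both had the same sign at 11 months in 155 (60.1%, rho 0.34), and at 6 months in 128 (49.6%, rho 0.02). Without the library labelled Tau 6m replicate 1 it was 123 of 259 at 6 months (47.5%, rho 0.05). In the CK-p25 series it was 100 of 176 on average (56.8%, rho 0.26). Of the 4 broad neighbours with 4 satellites, peak20587 on chromosome 8 had satellites at 0.39, 0.38, 0.18 and 0.12 at 11 months, none called, beside -0.08. Around peak940 on chromosome 1, peak937 (chr1:88397397-88397865) was called lower (-0.98 ± 0.32, edgeR adjusted p = 0.032), while peak938, peak939 and peak941 were at -0.16, 0.04 and 0.19 beside a neighbour at -0.16. Around peak36062 and peak4293 the tested satellites lay between -0.44 and 0.33, and peak4292, of 105 bp, had too few reads to test.

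At the distance threshold, the domains just inside were peak5123 (2000 bp) and peak26737 (1999 bp), with log2 fold changes at 11 months of 0.04 and -0.40. Those just outside were peak32018 and peak33942 (both 2001 bp), at 0.50 and 0.07.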

How the data were processed

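H3K9ac ChIP-seq was measured in 23 libraries, 11 of the tau and 12 of the CK-p25 series. Per the design text, the authors deposited unnormalised counts of reads in each domain; per the submitters' processing notes BWA, Picard 1.1175, MACS2 and the mm9 build were used, with input DNA used in calling and 1 set of domains common to all libraries, per the same text. A second deposited table gives each domain's start and end on mm9. Neither labels nor files say whether calling was per library or pooled. The other libraries in the labels were not used here.

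Members and lists were chosen with earlier results of these data known. Counts of all domains were fitted per series with edgeR 4.0.16 (R 4.3.3): TMM scaling, its filter on low counts, 1 robust quasi-likelihood fit over the 4 groups, and Benjamini-Hochberg adjustment over all domains with a threshold of 0.05. The pair test took each autosomal domain below the broad class with its nearest broad domain, used library as a block, compared their log ratio between groups and adjusted over all pairs. Standard errors are the log2 fold change over the root of F, which is unreliable where the change is near 0. CPM are counts over TMM-scaled totals. Fits were also run on simulated counts with known changes in some satellites and none in broad domains. That setting is simpler than these data, where broad domains changed too. Named satellites were the 8 with the smallest adjusted p per direction (tau 11 months and each CK-p25 time), 5 per direction in the pair test (tau 11 months and the CK-p25 average), those where ages differed, the largest families and those at the distance threshold. Alternatives were other distances, scalings, no filter, the replicate block, cross correlation as a covariate, DESeq2 1.42.0, limma 3.58.1 on log2 ratios, and the omission of each library. Omitting both shallow 6-week libraries, and the label check on chromosome 2, were chosen after seeing the data.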

Additional observations from a re-analysis of the deposited data

Results flagged for a closer look

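The tau effect at 11 months differed from that at 6 months at 9 satellites (interaction in edgeR's quasi-likelihood fit, adjusted over all domains). Age and sex cannot be told apart in this difference. The 5 with the smallest adjusted p were all lower at 11 months relative to 6 months. The difference in log2 fold change was -1.32643 at peak21155 (edgeR adjusted p = 0.0030), -2.02015 at peak33655 (0.0049), -1.90245 at peak15143 (0.011), -2.1128 at peak20618 (0.011) and -1.94538 at peak33654 (0.019). The last of these and peak33655 lie beside the same broad domain, peak33653. Without the library labelled Tau 6m replicate 1, peak33655 (-2.05, edgeR adjusted p = 0.033) and peak20618 (-2.35, edgeR adjusted p = 0.022) still passed, while peak21155 (-1.14, edgeR adjusted p = 0.082), peak15143 (-1.89, edgeR adjusted p = 0.065) and peak33654 (-1.64, edgeR adjusted p = 0.26) did not. That fit rests on 1 Tau 6m library, assumed to vary like the other groups. No cause was tested.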

How the results depend on the processing

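Counts of called satellites kept within 1.5 times of the reported ones with DESeq2 size factors, library totals, no filter on low counts and a 1 kb distance. Extending the distance to 5 kb, which takes in more domains, gave 121 (tau 11 months), 16 (difference between ages) and 32 (CK-p25 average), and against the neighbour 82, 7 (2 weeks), 2 (6 weeks) and 18 (average). With cross correlation as a covariate the counts were 0 at tau 11 months and for the difference between ages, 4 at 6 weeks and 13 on average. Of all domains 1.58%, 0.934%, 2.11% and 4.65% passed there. Against the neighbour the counts with this covariate were 1 at tau 11 months and 0 at 6 weeks, beside 0.724% and 1.07% of all pairs. With this covariate the log2 fold changes at 11 months of peak21488 (-0.109015), peak21485 (-0.00539149) and peak10420 (0.0106521) changed sign. The cause was not tested. Among satellites with an adjusted p, DESeq2 called 14 of 653 (tau 11 months) and 1 of 56 (difference between ages), with 1693 tested. Of all tested domains, with or without an adjusted p, it called 6.60% and 2.26%. In the CK-p25 series it called 1 of 753 (2 weeks), 1 of 119 (6 weeks) and 6 of 1248 (average), with 1248 tested. Of all tested domains there it called 0.796%, 1.19% and 3.11%. Limma on log2 ratios called 1 at 2 weeks and 3 on average against the neighbour, beside 0.817% and 4.65% of all pairs. Without both shallow 6-week libraries 3 satellites were called at 6 weeks and 0 against the neighbour. The shares there were 0.992% of all domains and 0.484% of all pairs.

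Leaving out each library in turn gave 33 to 83 called satellites at tau 11 months, 0 to 1 at 6 months, 3 to 21 for the difference between ages, 4 to 12 at 2 weeks, 1 to 7 at 6 weeks and 13 to 30 on average. Against the neighbour it gave 24 to 72 at tau 11 months, 1 to 4 at 2 weeks, 0 to 1 at 6 weeks and 4 to 9 on average. Of all pairs 7.26% to 14.5%, 0.815% to 1.88%, 0.511% to 1.32% and 3.17% to 4.96% passed in these comparisons. The share of all domains called moved too, from 7.84% without Tau 11m replicate 3 to 13.4% without Tau 11m replicate 2 at tau 11 months. In the CK-p25 series it was 1.07% to 2.49% at 2 weeks, 1.22% to 2.76% at 6 weeks and 4.17% to 6.03% on average. For the difference between ages it was 2.90% without WT 6m replicate 2 and 3.45% without WT 11m replicate 1. It was 4.45% without WT 11m replicate 3 and 5.83% without Tau 11m replicate 2. Deviations of equally numbered libraries from their group means had correlations from -0.013 to 0.050. With 2 or 3 libraries per group these values cannot exclude a pairing. At 6 weeks reads in domains fell with replicate number in both groups, from 3162511 to 996369 in CK and from 4085550 to 1308372 in CK-p25 libraries. With the replicate block the counts in the tau series were 67 at 11 months, 0 at 6 months and 8 for the difference between ages. Of all domains 11.9%, 0% and 3.52% passed there. In the CK-p25 series they were 10 at 2 weeks, 5 at 6 weeks, 21 on average and 0 for the difference between times. Of all domains 2.00%, 2.45%, 5.58% and 0.00262% passed there. Against the neighbour the counts were 50 and 0 in the tau series and 3, 1 and 9 in the CK-p25 series. Of all pairs 12.7%, 0.00257%, 1.67%, 1.24% and 4.66% passed there. Of 898 recomputed values of named satellites, 711 kept direction and side of the threshold, 184 lost the call and 3 changed sign. Low counts per satellite limit all single calls.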
